A study of Mus musculus with 3 samples.

Results

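The interferon regulatory factors are transcription factors that share a helix-turn-helix DNA-binding domain with a row of conserved tryptophans. The 8 genes described here, Irf1, Irf2, Irf3, Irf4, Irf5, Irf7, Irf8 and Irf9, were taken by gene symbol from the 55536 annotated genes of the tables; the rule uses no measured value, though the family was picked with earlier results of these data known. Every library came from the cytosolic fraction of C57BL/6J bone marrow-derived macrophages, primary cells grown from marrow progenitors, given Lipid A at 100 ng/ml for 40 min. Lipid A anchors bacterial lipopolysaccharide in the membrane and is the ligand of Toll-like receptor 4. Total RNA depleted of ribosomal RNA was sequenced, from 1 µg of starting RNA. The 3 libraries, biological replicates 1, 2 and 3 in the labels, form 1 group; they have separate sample records but 1 donor record, and sex and age were not collected. Without unstimulated cells or a second fraction, which were not analysed here, the levels show neither a response to Lipid A nor an enrichment in the cytosol. Nothing in the labels says whether the replicates came from separate animals, so p-values measure only how far these libraries differ, which may be technical.

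In macrophages Toll-like receptor 4 signals through the adaptors TRIF and MyD88. The TRIF branch leads to the kinases TBK1 and IKKε, which phosphorylate IRF3 and IRF7 and so switch on interferon-β. The MyD88 branch engages IRF5 and IRF1. Secreted interferon then acts through its receptor and ISGF3, a complex in which IRF9 contacts DNA. IRF8 and IRF4 bind DNA mainly with the partner PU.1 and set myeloid and lymphoid identity, and IRF2 occupies many of the sites that IRF1 binds and is best known as its antagonist.

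The gene tables held 37861150, 37136495 and 58889061 counts in replicates 1, 2 and 3. Levels are given as TPM, an abundance per length that the authors scaled to a fixed sum over all features. Nuclear protein-coding genes took 32.8%, 36.2% and 23.5% of that sum, and TPM of all 8 Irf genes was lowest in replicate 3. A rescaled TPM, relative to the sum of nuclear protein-coding genes in each library, is given where this share matters. On that scale Irf1, Irf7 and Irf9 were still lowest in replicate 3. Malat1, a nuclear non-coding RNA, had 291, 264 and 898 TPM, highest in replicate 3. All 10 macrophage markers reached 1 TPM, with summed levels of 6400 to 10700 TPM, and Adgre1, Csf1r and Cd68 were at mean levels of 171, 353 and 850 TPM. Of the other cell types, 1 of 8 plasmacytoid dendritic cell markers (Tcf4), 1 of 8 conventional dendritic cell markers (Batf3), 0 of 8 B and plasma cell markers, 0 of 8 T and NK cell markers and 3 of 8 neutrophil markers (S100a9, S100a8 and Ngp) reached 1 TPM. Their summed levels ran from 15.3 to 29.3, 1.38 to 3.58, 0.89 to 1.18, 0.04 to 0.2 and 34.4 to 44.8 TPM. Of all these markers, only Mzb1, Cd3e, Ncr1 and Ly6g had 0 counts in every library. The rest had counts in at least 1 library, such as 62, 42 and 86 for the B cell marker Cd79b. The absence of these other cells is therefore not shown.

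All of the family but Irf4 reached 1 TPM. This was 7 of the 8 genes by their mean over the libraries, against 64.7% of the 14658 protein-coding genes with any count. Irf1, Irf7, Irf8 and Irf5 stood above 42.1 TPM, the limit of the highest 10% of detected protein-coding genes, a class that held 7.82% of those 14658. The median over the 8 genes was 37.2 TPM, against 3.4 TPM over all protein-coding genes with any count. The order from high to low was Irf1, Irf7, Irf8, Irf5, Irf2, Irf9, Irf3 and Irf4. As a share of the family's summed TPM, Irf1 took 49.1% ± 6.9 (SD, n = 3), Irf7 13.8% ± 1.36, Irf8 13.8% ± 2.01, Irf5 11.4% ± 2.79, and the other 4 genes 5.02% or less each.

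**Figure D1:**
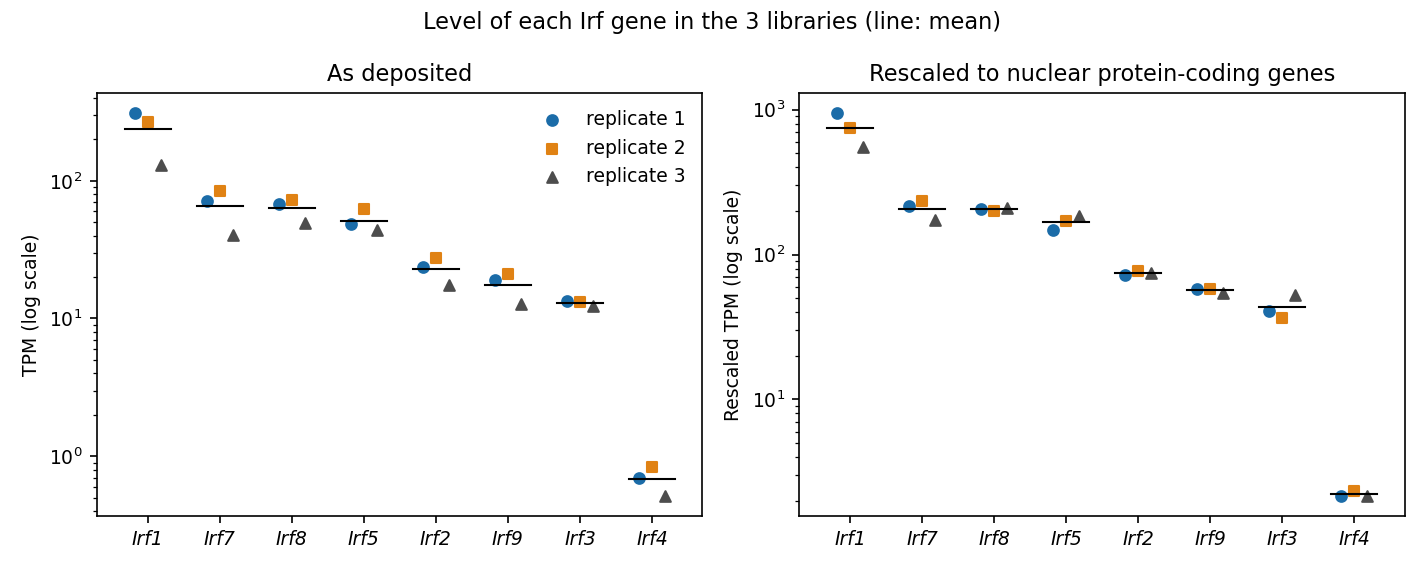
Level of each gene in each library on a log axis, as deposited TPM (left) and as TPM rescaled to nuclear protein-coding genes (right); symbols mark the 3 libraries and lines the mean. Irf1 lies above and Irf4 below all others in every library, and the 3 points of Irf8 come together after rescaling, at 201 to 209.

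Irf1 was the leading member. It encodes an activator of interferon-stimulated, antigen-presentation and inflammatory genes, and its own gene is a rapid target of interferon-γ and NF-κB signalling. The gene (ENSMUSG00000018899.16) lies on the forward strand of chr11:53770014-53778374 in build mm10. Its promoter is shown because it carries both kinds of site in the last bases before the start. RefSeq's promoter table (GRCm38.p6, the same assembly as mm10) gives the 100 bases before the start, chr11:53769914-53770013, forward strand. Capitals mark the gamma-activated site letters TTCNNNGAA, a kind of site known from interferon-γ responsive genes, and then 2 matches to the NF-κB letters (GGG, any 5 bases, CC).

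Irf1: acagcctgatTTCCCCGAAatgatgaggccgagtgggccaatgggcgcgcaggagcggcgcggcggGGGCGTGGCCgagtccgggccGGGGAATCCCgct

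Counted from the start, the gamma-activated site lies at -90 to -82 and the NF-κB matches at -34 to -25 and -13 to -4. Irf1 stood at 312.24, 269.14 and 129.24 TPM in replicates 1, 2 and 3 (236.9 ± 95.67, SD, n = 3), higher than 98.3% of detected protein-coding genes. Replicate 3 was far below the others. Part of that gap lay in the scale, since rescaled TPM was 953, 744 and 549, still lowest in replicate 3. Irf1 exceeded Irf7, the next gene, by 1.81 ± 0.27 (SD, n = 3) in log2(TPM + 1), with 2.12, 1.66 and 1.65 in the 3 libraries. This was higher in 3 of 3 libraries and more than 2 SD from 0, but 3 libraries allow no exact sign-flip p (two-sided) below 0.25, the value it had. Irf1 shares 135 exon bases with Gm17334 on the opposite strand, which had 90, 30 and 245 counts against 32093, 26215 and 26260 for Irf1. The Irf1 transcript Irf1-202, with 10 exons and a reading frame of 987 bases, took 94.6% ± 2.01 of the gene's TPM (SD, n = 3).

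Irf2 lay far below Irf1. The gene (ENSMUSG00000031627.9, chr8:46739732-46847458, forward strand) had 23.83, 27.66 and 17.59 TPM (23.03 ± 5.083, SD, n = 3). On the rescaled level the libraries were close, at 72.7, 76.5 and 74.8. Irf1 exceeded Irf2 by 3.66, 3.24 and 2.81 in log2(TPM + 1), that is 7.35 to 13.1 times in TPM, with the smallest ratio in replicate 3. Irf2-201 took 85.4% ± 0.814 of the gene's TPM. The Irf2 promoter was the only one of the family's 11 RefSeq promoters (all 8 genes matched) with the letters GAAA, any 2 bases, GAAA, the core of the interferon-stimulated response element that these factors bind. Its far end, chr8:46739495-46739539 on the forward strand, is shown for that match and the gamma-activated site letters next to it, in that order in capitals.

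Irf2: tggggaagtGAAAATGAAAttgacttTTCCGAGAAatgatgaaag

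Irf8, expressed through myeloid development, is the third gene with gamma-activated site letters, and it holds them at 2 places. The stretch chr8:120736177-120736223, forward strand, runs from -181 to -135 relative to its start, with the letters in capitals.

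Irf8: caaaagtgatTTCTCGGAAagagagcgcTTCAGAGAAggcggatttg

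These letters were searched on both strands from 250 bases before to 50 bases after each start. Over all 32851 promoters of the same length, the response element core occurred in 3.44%, the gamma-activated site in 8.30% and the NF-κB letters in 50.8%. Among the family, the first occurred in 1 of 11 promoters, the second in 3 (Irf1, Irf2 and Irf8) and the third in 8, at least 1 for each gene. A match of letters is a description and shows no binding.

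Irf3 and Irf7, the factors phosphorylated by TBK1 and IKKε, differed in level. IRF3 is the constitutive factor that starts interferon-β transcription, whereas IRF7 is itself induced by interferon and amplifies the response. Irf7 (ENSMUSG00000025498.15, chr7:141262706-141266481, reverse strand) had 70.86, 84.41 and 40.54 TPM (65.27 ± 22.46, SD, n = 3), lowest in replicate 3. Irf3 (ENSMUSG00000003184.15, chr7:44997648-45002848, forward strand) had 13.37, 13.21 and 12.32 TPM (12.97 ± 0.5657). Irf7 exceeded Irf3 by 2.18 ± 0.49 in log2(TPM + 1), in 3 of 3 libraries, with a TPM ratio of 3.29 in replicate 3 and up to 6.39 in the others. The near-equal TPM of Irf3 did not carry over to the other scale: rescaled TPM was 40.8, 36.5 and 52.4, highest in replicate 3.

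The TPM of Irf3 was spread over more transcripts. Each of the other 7 genes had 1 transcript with over 50% of its TPM by the mean over the libraries (Irf9 only in the first quantification, with 46.2% in the second). In single libraries the largest share of Irf9 and Irf4 could be lower. In Irf3 the largest share, of Irf3-202, was 28.9% ± 13.7 (SD, n = 3). This transcript has 8 exons and a reading frame of 1257 bases. The transcript next in share, at 25.9% ± 2.82, and a further one, at 4.2% ± 2.15, have the same exon number and frame length. The low largest share therefore does not show that Irf3 lacks a main coding product. Whether these frames are identical was not tested. Retained-intron transcripts, which keep an intron and have no annotated reading frame, held 29.6%, 3.56% and 32.5% of the Irf3 TPM in replicates 1, 2 and 3. Replicate 2 stood far below. In the second quantification the same share was 39.7%, 27.9% and 47.8%, with Irf3-207, a retained-intron transcript, as the largest at 26.3% ± 2.06. Irf4 and Irf5 have no annotated retained-intron transcript and so no such share. Among the rest of the family the mean share over the 3 libraries ran from 0.568% (Irf8) to 5.44% (Irf7) in the first quantification. In the second it ran from 1.29% (Irf1) to 7.42% (Irf7). The comparison covered 5945 protein-coding genes with such an annotated transcript and a mean of at least 1 TPM. Their median was 1.45% in the first quantification and 2.47% in the second, and Irf3 lay above 92.0% and 96.7% of them.

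**Figure D2:**
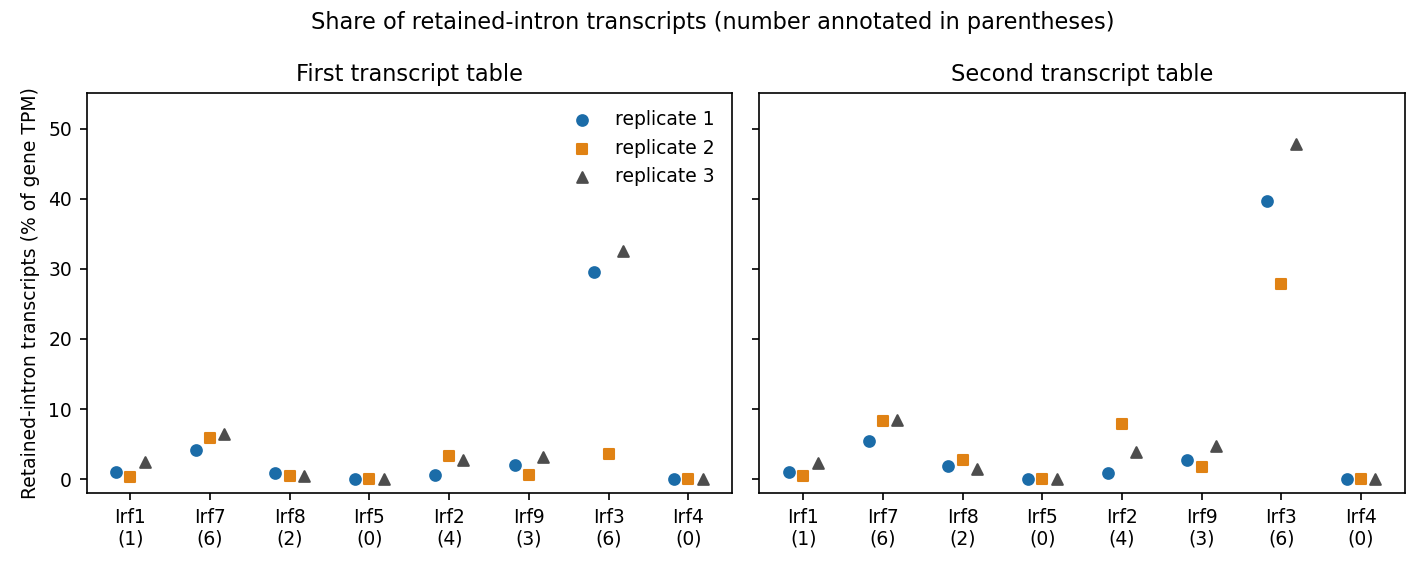
Share of each gene's TPM held by its retained-intron transcripts in each library, from the first (left) and second (right) transcript table; the number of such annotated transcripts is in parentheses. Irf3 lies between 27.9% and 47.8% in the second table, whereas its replicate 2 is at 3.56% in the first; all other genes lie under 10% in both.

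The median retained-intron share over those genes was itself highest in replicate 3 and lowest in replicate 2, at 1.03%, 0.428% and 1.97% in the first quantification, as was Malat1. Its part in the Irf3 share was not tested. Protein-coding transcripts of Irf3 alone had rescaled levels of 28.8, 35.2 and 35.4 in the first quantification and 24.8, 26.2 and 27.0 in the second. Those values in replicates 2 and 3 were close, in contrast to the whole gene. Of the exons of Irf3, 88 bases overlap Bcl2l12 on the opposite strand, whose mean level was 3.82 TPM.

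IRF9 is required for the response to type I interferon. Irf9 (ENSMUSG00000002325.15, chr14:55603571-55610030, forward strand) had 19.09, 21.05 and 12.78 TPM (17.64 ± 4.321, SD, n = 3), and 58.3, 58.2 and 54.3 after rescaling. It lay below Irf2 in 3 of 3 libraries, by 0.37 ± 0.06 in log2(TPM + 1). It lay above Irf3 by 0.48, 0.63 and 0.05, a difference of 0.39 ± 0.30 that was within 2 SD of 0. Its main transcripts were Irf9-205, at 47.0%, 62.3% and 51.2% of the gene's TPM, and Irf9-202, at 46.5%, 30.7% and 42.5%. The first led in every library here, whereas Irf9-202 led in replicates 1 and 3 of the second quantification, at 49.0% and 54.7%. Irf9 shares 123 exon bases on the same strand with Rnf31, which had a mean level of 7.61 TPM, so reads there cannot be assigned to 1 of the genes with certainty.

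IRF5 drives inflammatory cytokine genes downstream of MyD88, and IRF8 is required for myeloid development. Irf8 (ENSMUSG00000041515.10, chr8:120736358-120756694, forward strand) had 67.48, 72.70 and 49.09 TPM (63.09 ± 12.4, SD, n = 3). Irf5 (ENSMUSG00000029771.12, chr6:29526625-29541871, forward strand) had 48.54, 61.9 and 43.8 TPM (51.41 ± 9.386). Irf7, Irf8 and Irf5 formed a group whose neighbours did not separate beyond their spread. Irf7 minus Irf8 was 0.07, 0.21 and -0.27 in log2(TPM + 1), with opposite signs between libraries. Irf8 minus Irf5 was 0.47, 0.23 and 0.16 (0.29 ± 0.16), above 0 in 3 of 3 libraries but within 2 SD of 0. These differences do not show that the levels are equal.

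The lower edge of that group was clear: Irf5 exceeded Irf2 by 1.13 ± 0.14 in log2(TPM + 1), in 3 of 3 libraries. Irf8-201 took 98.6% ± 0.19 of the Irf8 TPM (SD, n = 3) and Irf5-201 took 88.7% ± 4.36 of the Irf5 TPM. Irf5 shares 411 exon bases with Tnpo3 on the opposite strand (mean 12.0 TPM) and Irf7 shares 45 with Phrf1 (mean 12.8 TPM). The use of strand in the authors' counting is not given in the sources used here. Irf8 lies within the span of Gm20388 on the same strand, with 0 shared exon bases.

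IRF4 acts in B cells, T cells, dendritic cells and interleukin-4-treated macrophages. Irf4 (ENSMUSG00000021356.10, chr13:30749226-30766976, forward strand) had 0.70, 0.84 and 0.51 TPM (0.6833 ± 0.166, SD, n = 3), from 174, 196 and 259 counts, well over the floor of 3 counts. Irf8, its closest relative, was 86.5 to 96.4 times as high in TPM. Irf5 was 69.3 to 85.9 times as high. Both ratios were smaller in replicate 3 of the second table, with 14.4 TPM for Irf8 and 13.7 for Irf5 against 0.258 for Irf4. Irf3, the next lowest gene, exceeded it by 3.06 ± 0.10 in log2(TPM + 1), a scale that understates the difference below 1 TPM; the ratio of TPM was 15.7 to 24.2, and the difference was 4.08 with a pseudocount of 0.1 and 2.26 in the second table. Irf4-201 held 71.6% ± 10.9 of the Irf4 TPM, and 63.1% ± 24.2 in the second quantification. There, in replicate 3, it took 36.3% and Irf4-203 took 39.2%. B and plasma cell markers, the lineage with the highest known Irf4, summed to 0.89 to 1.18 TPM, nearly all of it Cd79b; its part in the Irf4 level was not tested.

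Of the 11 pairs compared in log2(TPM + 1), 7 were neighbours in the order and 4 (Irf1 and Irf2, Irf7 and Irf3, Irf8 and Irf4, Irf5 and Irf4) were chosen for their known relations after the values had been seen. The order itself was taken from the mean TPM of these libraries, and the 4 chosen pairs follow the same order. The direction of the mean differences was therefore largely set beforehand, and the pairs are not independent, so their number does not support the order. In 8 of the 11 the sign was the same in 3 of 3 libraries and the mean lay beyond 2 SD. The exceptions were Irf7 and Irf8, Irf8 and Irf5, and Irf9 and Irf3. No pair could pass an exact test at this number of libraries, whether or not the p-values were adjusted.

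The spread between libraries was then compared with that of all 12250 genes tested, on the scale of log2 CPM, counts relative to library size with TMM scaling. The test, edgeR's goodness of fit, asks whether a gene's counts vary more between libraries than the trend at its level. No gene of the family passed: 0 of 8 had an adjusted p under 0.05 (Benjamini-Hochberg over all genes), against a background of 1.71%. An unadjusted p under 0.05 was found for 1 of 8, against 6.15%. With 3 libraries, failing the threshold does not show that a gene varies no more than the trend. The same counts, 0 and 1 of 8, were found by edgeR with DESeq2's size factors. The 1 gene, Irf1, was lost at the unadjusted threshold without replicate 1 (edgeR p 0.102) and without replicate 3 (edgeR p 0.248).

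Irf1 came nearest. Its log2 CPM was 9.72, 9.41 and 8.86 (SD 0.438), a range of 1.82-fold with replicate 3 lowest, and edgeR gave a p of 0.0185 and an adjusted p of 0.456. Of the 177 genes within 0.5 log2 CPM of it, 97.2% had a smaller SD. Irf7 followed, at 7.45, 7.62 and 7.08 (SD 0.276; edgeR p 0.135), again lowest in replicate 3.

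Irf8 was at the other end. Its log2 CPM was 7.98, 7.98 and 7.97 (SD 0.007), and only 18 of the 12250 genes had a smaller SD, where the median SD over all genes was 0.161. The SD of Irf8 was 0.019 with no filter on low counts and 0.039 in the second transcript table, so its extreme rank depends on the setting. Irf2 (SD 0.061), Irf4 (0.089), Irf9 (0.094) and Irf5 (0.135) also lay below that median. Irf3 (0.202) lay above it, at 4.53, 4.32 and 4.73, with replicate 3 highest. Against genes within 0.5 log2 CPM of each, Irf2, Irf4 and Irf9 were again below the median SD (0.119, 0.198 and 0.118). Irf5 was slightly above its own median of 0.128, with 53.7% of those genes at a smaller SD. Irf3 and Irf7 were above theirs (0.137 and 0.127). Replicate 3 was lowest for 4 of the 8 genes, replicate 1 for 3 and replicate 2 for 1, against 32.7%, 30.4% and 36.9% of all genes tested, and for Irf8 and Irf4 the lowest library was a near tie.

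**Figure D3:**
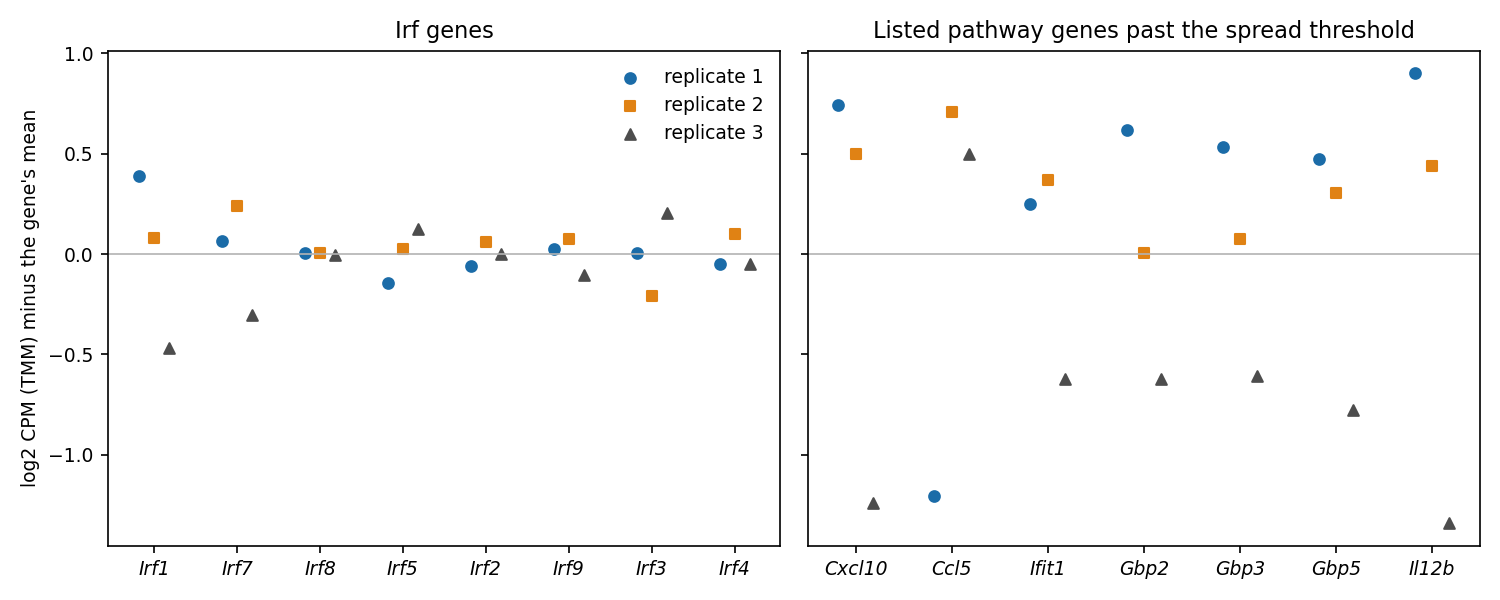
Deviation of log2 CPM (TMM scaling) from each gene's mean in each library, for the 8 Irf genes (left) and for the 7 listed pathway genes whose spread passed the threshold (right). Irf1 and Irf7 are lowest in replicate 3, Irf8 shows almost no deviation, and 6 of the 7 pathway genes are lowest in replicate 3.

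The protein-coding genes whose centred profile lay nearest to that of Irf1, the most variable of the family, were E030030I06Rik, Fas and Acy1. Their Euclidean distances in log2 CPM over the 3 libraries were 0.0419, 0.0456 and 0.0463. Fas encodes a death receptor and Acy1 an aminoacylase. Of the 9478 genes compared, 18 lay within a distance of 0.1. With 3 libraries a profile has little to distinguish it, and the likeness is a description.

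Genes that act with the family were taken from 10 lists with 98 different genes besides the family itself, all found in the tables. A mean of 1 TPM was reached by 87 of the 98, against 64.7% of the 14658 protein-coding genes with any count. In the spread test, 7 of the 90 that entered it passed an adjusted p of 0.05 (edgeR), against the background of 1.71%. These were Cxcl10, Ccl5, Ifit1, Gbp2, Gbp3, Gbp5 and Il12b, and the same 7 passed in edgeR with DESeq2's size factors. Of the 7, 6 were lowest in replicate 3, and without that library 1 listed gene passed. The lists were chosen with earlier results of these data known, so the comparison with the background is a description and no test of the lists.

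Upstream of the family, all 15 kinases and adaptors reached 1 TPM, with a median of 14.9 TPM. Myd88, the adaptor named for its branch, stood at 26.4 ± 5.45 TPM (SD, n = 3) and Ikbke, which encodes IKKε, at 23.9 ± 3.84. Of the 15, 0 passed the spread test by edgeR and 0 had an unadjusted p under 0.05, against 1.71% and 6.15% of all genes tested. The binding partners had a median of 17.1 TPM and were led by Jun (171 ± 32.1 TPM), an AP-1 subunit, and Spi1 (85.1 ± 26.4 TPM), which encodes PU.1, the partner of IRF8 and IRF4. Of the 11 partners that entered the test, 0 passed and 0 had an unadjusted p under 0.05. Corepressors and degraders were lower, with a median of 7.02 TPM. Irf2bp2, a corepressor that binds IRF2, led them at 40.8 ± 9.40 TPM, followed by Rbck1, a ubiquitin ligase subunit, at 13.8 ± 3.17 TPM, and 0 of 10 passed, with 2 at an unadjusted p under 0.05.

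The interferon genes themselves were scarce, whereas their receptors were not. Ifnb1, which encodes interferon-β, had 3.61, 3.97 and 0.83 TPM, lowest in replicate 3; its spread did not pass (edgeR, adjusted p = 0.421). Ifna4 and Ifng had 0 counts in every library. Ifnar2 and Ifngr1, receptor chains for type I interferon and interferon-γ, stood at 59.6 ± 11.7 and 49.7 ± 13.4 TPM (SD, n = 3). Of the 8 genes of the list that entered the test, 0 passed and 1 had an unadjusted p under 0.05, against 1.71% and 6.15% of all genes tested.

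Target genes of IRF3 held 3 of the 7 genes past the threshold, of 9 tested, against 1.71% of all genes tested. Cxcl10, a chemokine gene, stood at 131.61, 118.78 and 24.21 TPM. Its low library was replicate 3, with a 3.94-fold range of CPM (edgeR, adjusted p = 8.55e-11). Ccl5, another chemokine gene, went the other way, at 17.69, 75.41 and 43.21 TPM, with replicate 1 lowest and a range of 3.76-fold (edgeR, adjusted p = 4.04e-08). Ifit1, which encodes an RNA-binding antiviral protein, had 27.98, 32.78 and 11.32 TPM (edgeR, adjusted p = 0.0184). The list's highest levels belonged to Ccl4, at 482 ± 163 TPM, and Ifit2, at 98.0 ± 40.4 TPM. Of its 9 genes, 8 were lowest in replicate 3 on the log2 CPM scale, where 32.7% of all genes tested were.

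Target genes of IRF1 held 4 of 13 tested, against 1.71% of all genes tested. The guanylate-binding proteins, interferon-induced GTPases that act on intracellular pathogens, made up 3 of them. Gbp2 had 38.97, 27.67 and 12.22 TPM (edgeR, adjusted p = 0.0011), Gbp3 had 20.00, 15.73 and 6.58 TPM (0.0042) and Gbp5 had 24.08, 22.94 and 7.34 TPM (0.000362). Replicate 3 was lowest in each, as it was for Irf1. Gbp genes are near copies of each other, so how reads were split among them is uncertain.

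Il12b, which encodes the p40 subunit of interleukin-12, had 3.30, 2.58 and 0.50 TPM, again lowest in replicate 3 (edgeR, adjusted p = 0.00281); it is on the IRF1, IRF5 and IRF8 target lists. The IRF1 list was led by Psmb8, an immunoproteasome subunit, at 58.6 ± 15.7 TPM, and Cd274, which encodes PD-L1, at 56.8 ± 18.1 TPM. Of its 13 tested genes, 8 were lowest in replicate 3, against 32.7% of all genes tested. Without replicate 3, Ccl5 alone of the listed genes passed the test; without replicate 1, Cxcl10 and Gbp5 did.

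Target genes of ISGF3, the complex of IRF9, were all above 1 TPM, with a median of 25.8 TPM over 12 genes that include Irf7. Among them, Rtp4, an interferon-induced gene, stood at 82.8 ± 34.3 TPM (SD, n = 3). Of the 12, 0 passed the spread test by edgeR, against 1.71% of all genes tested, and 3 had an unadjusted p under 0.05, against 6.15%. Replicate 3 was lowest for 11 of 12, against 32.7% of all genes tested. Genes of 1 list in the same 3 libraries are not separate observations.

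Target genes of IRF5, IRF8 and IRF4 differed widely in level within each list. Tnf, the gene of tumour necrosis factor, stood at 1159.94, 1427.39 and 608.56 TPM and led the IRF5 list, whose median was 1.4 TPM because Il12b (2.13 TPM), Il23a, Il6 and Il12a were low. The IRF8 list had a median of 125 TPM, with Ctss (883 ± 225 TPM), a lysosomal protease of antigen processing, and Cst3 (299 ± 82.3 TPM), its inhibitor cystatin C, at the top. Its 9 genes were lowest in replicate 2 in 6 cases, as were 6 of the 10 macrophage markers, against 36.9% of all genes tested. The IRF4 list had a median of 2.61 TPM; Mrc1, the mannose receptor gene, was at 121 ± 18.4 TPM and Prdm1, a transcriptional repressor gene, at 14.9 ± 3.11 TPM, whereas Retnla had 0 counts in every library. Besides Il12b, 0 genes of these 3 lists passed the spread test by edgeR, against 1.71% of all genes tested. With Il12b, 2 of 4, 3 of 9 and 1 of 4 tested genes of the IRF5, IRF8 and IRF4 lists had an unadjusted p under 0.05, against 6.15%.

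**Figure D4:**
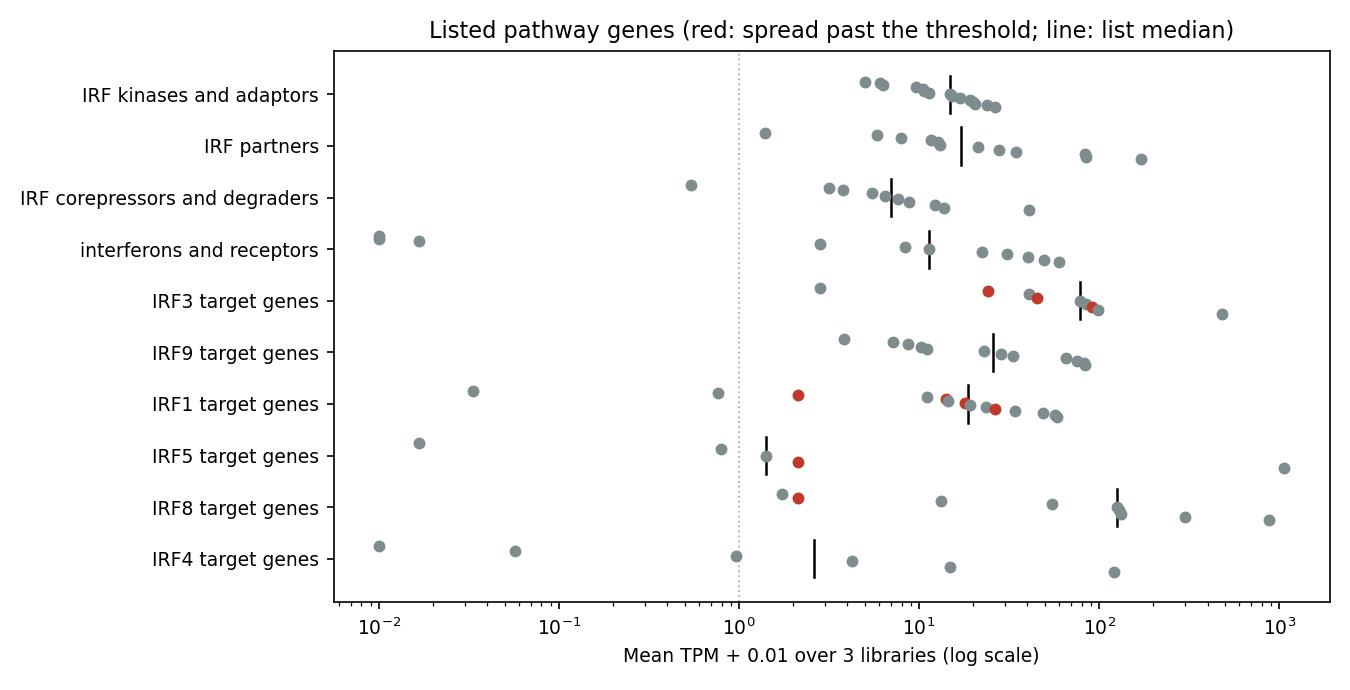
Mean TPM over the 3 libraries, plus 0.01, of each gene on the 10 lists on a log axis; red points passed the spread test, black lines are list medians and the dotted line is 1 TPM. All 15 kinases and adaptors lie between 5 and 26.4 TPM, whereas the interferon and IRF4 target lists reach down to 0.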

How the data were processed

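Cytosolic RNA of Lipid A-treated macrophages was analysed in 3 libraries of 1 group. Expected counts and TPM per gene and transcript, derived by the authors from a transcriptome alignment, and a second transcript table of estimated counts and TPM, derived by the authors from the reads directly, were used as deposited (mm10, GENCODE M21, per the labels and the deposited notes). The authors' quantification software was not given in the sources used here. Symbols came from the GENCODE M21 annotation, which matched 55536 gene identifiers, and those of the Irf genes were checked against the second table. Expected counts were rounded and spread was tested with edgeR 4.0.16 (R 4.3.3, filterByExpr, TMM, intercept only, trended dispersion, goodness of fit, Benjamini-Hochberg over all genes). The step was also run on counts simulated from its own fitted dispersion, with changes of 2-fold or more planted in 1 library. That run does not show what the step finds at smaller differences, such as the 1.82-fold range of Irf1. Levels were compared within libraries as log2(TPM + 1) with exact sign-flip tests, and a difference was taken as beyond its spread with 1 sign in 3 libraries and a mean over 2 SD. Detected means at least 0.1 TPM. Spike-ins (0.0533% to 0.314% of counts) stayed out of tests. Named pathway genes were the 2 highest of each list, those past the spread threshold and those at 0 counts throughout (1 gene the rule names is not reported here); the neighbours of Irf1 were the 3 nearest profiles, and a few further list members are named by level after their values were seen. The members and lists were chosen with earlier results of these data known. Alternatives were DESeq2 1.42.0 size factors, no filter, protein-coding genes only, the second table, rescaled TPM, CPM, posterior mean TPM, other pseudocounts and limits, and leaving out each library. Totals of 37136495 to 58889061 counts gave a floor of 3 counts at 0.0509 to 0.0808 CPM, counting error only.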

Additional observations from a re-analysis of the deposited data

How the results depend on the processing

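No paired analysis was possible because all libraries belong to 1 group. In each of the 7 alternatives to the spread test, 0 of the 8 Irf genes passed; the adjusted p of Irf1 (edgeR) ran from 0.149 without replicate 2 to 1 without replicate 1. Over all genes, 209 passed, 115 with protein-coding genes only and 59 to 129 with 1 library left out (59 without replicate 3). Of the listed pathway genes, 7 passed, and 1 to 8 with 1 library left out: 2 without replicate 1, 8 without replicate 2 and 1 without replicate 3. The cause was not tested. The order of the Irf levels kept 7 of 7 neighbours in the second table, on the rescaled scale, in posterior mean TPM and with a pseudocount of 0.1, and 6 of 7 in CPM and without replicate 2, where Irf8 lay above Irf7. Dropping genes under 1 TPM kept 6 of 6. A transcript with a mean share over 50% of TPM was found in 6 of 8 genes in the second table and without replicate 2. It was found in 7 with shares of expected counts, an alternative chosen after seeing the data. The mean retained-intron share of Irf3 was 21.9%, and 38.5% in the second table. Listed genes at 1 TPM or more numbered 87, and 86 to 91 under the alternatives. With 3 libraries no exact test of 1 gene pair can pass, and 1 library can decide a spread call.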
